A study of Mus musculus with 6 samples.

Results

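Wt1, Tcf21, Upk3b, Upk1b, Msln and Bnc1 are markers of the epicardium and of the proepicardium that gives rise to it, and their levels are described here in each library of a Shox2 knockout study. The 6 genes were chosen by symbol, and all 6 are listed in each of the 6 deposited gene tables, among 30631 genes. The cells were mouse embryonic stem cells differentiated in hanging drops toward sinoatrial node-like cardiomyocytes and sorted at stage 7+1 days for the surface protein CD166. RNA sequencing (500 ng of total RNA per sample) was done on 3 samples labelled Shox2-/- and 3 labelled wild type (Shox2+/+), and Shox2 encodes a homeobox protein needed for the heart's pacemaker to form. The stem cells of both groups had been kept on mouse embryonic fibroblasts. The titles give the 3 samples labelled Shox2-/- the same prefix (J2) and different Diff numbers (7, 8 and 9). The titles of those labelled wild type start differently from each other and end in Diff9, Diff9 and Diff811. If the prefixes name stem cell clones, clone and genotype cannot be told apart, and the labels do not say what the Diff numbers mean. Separate cultures within a group are not stated, and the p-values cover only the spread among these 6 samples, some of which may be technical.

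The epicardium is the mesothelial sheet that covers the heart. It grows from the proepicardium, a cluster of mesothelial cells at the venous pole of the heart tube, close to where the sinus node forms. Epicardial cells keep apical surface proteins of mesothelium, and some of them undergo an epithelial-to-mesenchymal transition that yields cardiac fibroblasts and mural cells. Wt1 and Tcf21 are transcription factors of this program, Bnc1 encodes the zinc finger protein basonuclin, and Upk3b, Upk1b and Msln encode proteins of the cell surface. None of the 6 is restricted to the heart. Wt1 is also used by kidney and gonad, Bnc1 by stratified epithelia, and uroplakins by urothelium.

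Gene-assigned reads ranged over the libraries from 13504683 to 34650564. The closest pair was libraries 1 and 2 labelled wild type, with 14.0% of 13303 well-covered genes differing beyond counting error, where 5% would be expected without any difference. In the other 14 pairs that share was 48.1% to 71.7%. Shox2 itself was at 201, 548 and 373 normalized counts in libraries 1, 2 and 3 labelled Shox2-/-, against 89.6, 83.4 and 31.4 in those labelled wild type. Shox2 was therefore higher where the label names a knockout, with a log2 change of 2.46 (SE 0.50, limma adjusted p = 0.201), and every direction given here is one between labels. A count over the whole gene does not show which exons were read, so it cannot decide whether the labels are right. In the annotation 153 exonic bases of Shox2 are also shared with Rsrc1 on the plus strand. The gene of the sorted protein, Alcam, had a log2 change of -0.47 (SE 0.12; limma adjusted p = 0.242).

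The epicardial markers were lower on average in the libraries labelled Shox2-/-, and none of them passed the test over all genes. Of the 6 genes, 5 reached a normalized count of at least 10 in at least 3 libraries and were tested, and Msln did not. All 5 had a negative log2 change, as did 48.2% of all genes tested, with a median of -1.41 against 0.01 over all 17034 genes tested. Adjusted over all genes in limma, 0 of the 5 were called at an adjusted p under 0.05, and the same held for 0% of all genes tested. At an unadjusted p under 0.05, 1 of the 5 (Bnc1) was lower, where 7.23% of all genes were lower and 6.92% higher at that level. On recovered reads, limma voom with sample quality weights also called 0 of the 5 and 1.78% of all genes, and voom without weights called 0 of the 5. The groups did not overlap for 2 of the 5, Upk3b and Bnc1, both lower in the libraries labelled Shox2-/-, as were 10.8% of all genes tested (23.6% in either direction). In bulk RNA, fewer cells of a type and less RNA per cell cannot be told apart.

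**Figure D1:**
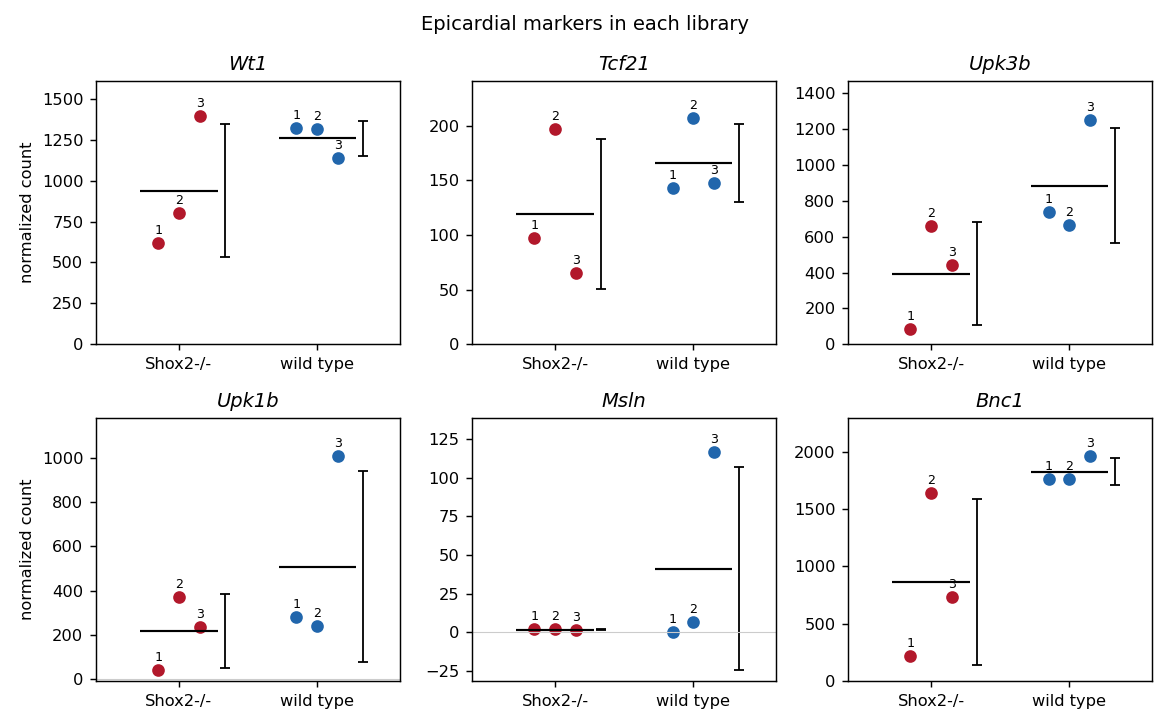
Normalized counts (linear axes, a different range in each panel) of the 6 epicardial markers in the 3 libraries labelled Shox2-/- (left, red) and the 3 labelled wild type (right, blue). Numbers beside the points name the library, horizontal lines are group means and bars to their right are ± 1 SD (n = 3). Library 1 labelled Shox2-/- is the lowest of the 6 for Wt1, Upk3b, Upk1b and Bnc1, and Msln is near 0 except in library 3 labelled wild type.

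Among the 5 tested markers, Wt1 had the smallest range over the 6 libraries, with its highest level 2.26 times its lowest, against 3.18 times for Tcf21 and 9.15 times for Bnc1. Wt1 (ENSMUSG00000016458; mm10 chromosome 2, 105126529 to 105173616, plus strand) encodes a zinc finger protein that the epicardium needs to form mesenchyme. It was at 618, 804 and 1394 normalized counts in libraries 1, 2 and 3 labelled Shox2-/-, against 1324, 1318 and 1138 in those labelled wild type. Library 3 labelled Shox2-/- had the highest Wt1 level of all 6 and the other two labelled Shox2-/- the lowest, so the groups overlapped. Libraries labelled Shox2-/- averaged 939 ± 405 (SD, n = 3) and those labelled wild type 1260.0 ± 106 (SD, n = 3). The log2 change was -0.51 (SE 0.28, 95% interval -1.15 to 0.14; limma adjusted p = 0.436). Wt1os, a noncoding antisense transcript, starts 18 bases from the start of Wt1 on the other strand and shares no bases with Wt1 in the annotation. It was at 27.7, 31.3 and 81.5 in libraries labelled Shox2-/-, against 61.4, 71.0 and 79.3 in those labelled wild type. The order of the libraries labelled Shox2-/- was that of Wt1, and the groups overlapped as well (log2 change -0.75, SE 0.42; limma adjusted p = 0.446). The ratio of Wt1 to Wt1os was 22.3, 25.7 and 17.1 in libraries labelled Shox2-/-, against 21.6, 18.6 and 14.3 in those labelled wild type.

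Tcf21 (ENSMUSG00000045680; chromosome 10, 22817281 to 22820174, minus strand), a basic helix-loop-helix factor of epicardial cells that become cardiac fibroblasts, was at 96.9, 197 and 65.2 in libraries 1, 2 and 3 labelled Shox2-/-, against 143, 207 and 148 in those labelled wild type. Its lowest level was in library 3 labelled Shox2-/-, the one with the highest Wt1, and library 2 of that label lay within the range of those labelled wild type. Libraries labelled Shox2-/- averaged 120 ± 68.6 (SD, n = 3) and those labelled wild type 166 ± 35.9 (SD, n = 3). The log2 change was -0.60 (SE 0.40, 95% interval -1.53 to 0.33; limma adjusted p = 0.509). Only 56 to 318 reads per library stood behind these values, so counting error alone spanned 52.3 to 80.3 normalized counts (exact Poisson, 95%) at the lowest of them.

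Bnc1 (ENSMUSG00000025105; chromosome 7, 81966672 to 81992292, minus strand) encodes basonuclin 1, a nuclear zinc finger protein. It was at 215, 1644 and 734 in libraries 1, 2 and 3 labelled Shox2-/-, against 1761, 1764 and 1963 in those labelled wild type. Each library labelled Shox2-/- lay below each labelled wild type, but within counting error for the nearest pair, at 1569 to 1721 for library 2 labelled Shox2-/- and 1657 to 1870 for library 1 labelled wild type (exact Poisson, 95%). Spread was unequal: the coefficient of variation was 83.7% in the libraries labelled Shox2-/- and 6.31% in those labelled wild type. Mean levels were 864 ± 723 (SD, n = 3) in libraries labelled Shox2-/- and 1829 ± 116 (SD, n = 3) in those labelled wild type. The log2 change was -1.52 (SE 0.64, 95% interval -3.01 to -0.02), with a limma adjusted p = 0.350. In the annotation 98 exonic bases of Bnc1 are shared with 4833418N17Rik on the plus strand, and reads from these cannot be told apart if the counting ignored strand.

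The surface proteins showed wider ranges. Upk3b (ENSMUSG00000042985; chromosome 5, 136038496 to 136046487, plus strand), a uroplakin found in mesothelium, was at 84.8, 658 and 440.0 in libraries 1, 2 and 3 labelled Shox2-/-, against 735, 665 and 1253 in those labelled wild type. The groups did not overlap, although the 658 and 665 that separate them differ by less than counting error. Libraries labelled Shox2-/- averaged 394 ± 289 (SD, n = 3) and those labelled wild type 884 ± 321 (SD, n = 3). The log2 change was -1.54 (SE 0.71, 95% interval -3.19 to 0.11; limma adjusted p = 0.374).

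Upk1b (ENSMUSG00000049436; chromosome 16, 38773184 to 38800328, minus strand), a tetraspanin and the partner of uroplakin III proteins in urothelial plaques, was at 39.8, 373 and 234 in libraries 1, 2 and 3 labelled Shox2-/-, against 279, 238 and 1007 in those labelled wild type. Library 1 labelled Shox2-/- and library 3 labelled wild type stood at the ends, and the other 4 lay together between them and overlapped. Libraries labelled Shox2-/- averaged 216 ± 167 (SD, n = 3) and those labelled wild type 508 ± 433 (SD, n = 3). The log2 change was -1.41 (SE 0.88, 95% interval -3.47 to 0.65; limma adjusted p = 0.487).

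Msln (ENSMUSG00000063011; chromosome 17, 25748613 to 25754378, minus strand) encodes mesothelin, a lipid-anchored glycoprotein of mature mesothelium. It was at 1.73, 1.79 and 1.48 in libraries 1, 2 and 3 labelled Shox2-/-, against 0, 6.52 and 117 in those labelled wild type. The reads behind these values were 1, 2 and 2 in libraries labelled Shox2-/-, against 0, 10 and 149 in those labelled wild type. Mesothelin RNA was thus clearly above counting error in library 3 labelled wild type (98.9 to 137 normalized counts, exact Poisson, 95%). The 0 in library 1 labelled wild type allows up to 4.98 normalized counts, the value of 3 reads. The upper end of its exact Poisson interval (95%) is 6.12. At that depth the libraries labelled Shox2-/- could not be told from library 1 labelled wild type. Msln was left out of the filtered test, because only 1 library reached a value of 10. Tested without the filter, it had a log2 change of -1.85 (SE 1.39; limma adjusted p = 0.674).

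Promoter sequences are shown for Upk3b, Bnc1 and Tcf21, the 3 of the 6 genes that the RefSeq table (GRCm38.p6) matched. Upk3b and Bnc1 had the closest profiles across libraries, and that of Tcf21 was unlike both, so their promoters can be set side by side. The sequences run 5′ to 3′ from 250 bases before to 50 bases after the transcript start. Capitals mark matches, on either strand, to 4 motifs. The first is GGAATG, bound by TEAD factors, the partners of YAP on DNA. The next is AGATAA, which proteins of the GATA family bind. The E-box CAGCTG is one that basic helix-loop-helix factors such as Tcf21 can bind. The letters shared by Egr factors and Wt1 are GCGNGGGNG. None of the matches overlap each other.
Upk3b, chr5:136038246-136038545, plus strand: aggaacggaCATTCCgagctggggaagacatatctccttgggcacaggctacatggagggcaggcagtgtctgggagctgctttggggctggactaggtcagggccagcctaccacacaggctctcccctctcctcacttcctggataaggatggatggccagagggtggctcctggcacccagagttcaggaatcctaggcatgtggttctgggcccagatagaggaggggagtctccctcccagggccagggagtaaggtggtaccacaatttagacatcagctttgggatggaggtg
Bnc1, chr7:81992250-81992549, minus strand: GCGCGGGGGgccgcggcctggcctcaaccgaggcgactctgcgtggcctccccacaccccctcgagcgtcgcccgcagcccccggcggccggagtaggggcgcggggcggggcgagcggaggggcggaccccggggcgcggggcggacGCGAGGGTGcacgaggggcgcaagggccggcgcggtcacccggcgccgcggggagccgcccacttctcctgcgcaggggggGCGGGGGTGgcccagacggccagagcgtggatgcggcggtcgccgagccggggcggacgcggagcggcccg
Tcf21, chr10:22820094-22820393, minus strand: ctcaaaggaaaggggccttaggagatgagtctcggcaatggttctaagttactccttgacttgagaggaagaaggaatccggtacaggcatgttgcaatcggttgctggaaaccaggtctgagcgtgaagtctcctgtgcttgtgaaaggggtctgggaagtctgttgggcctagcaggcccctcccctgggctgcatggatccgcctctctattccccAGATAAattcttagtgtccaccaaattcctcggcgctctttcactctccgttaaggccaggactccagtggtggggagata

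The Upk3b window held 1 match to the TEAD letters, which 14.7% of 32851 RefSeq promoter windows also hold. The Bnc1 window held 3 matches to the Egr and Wt1 letters, present in 12.3% of all windows, and the Tcf21 window 1 match to the GATA letters, present in 11.2%. CAGCTG, present in 16.3% of windows, had no match in these 3. In base composition, the pair with similar profiles across libraries was unlike: Bnc1 had 83.3% G and C and a CpG observed-to-expected ratio of 0.98, while Upk3b had 58.7% and 0.08 and Tcf21 53.3% and 0.38. The medians over all windows were 52.7% and 0.38. A match describes letters and does not show binding.

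The markers did not share a single pattern across libraries. Upk3b and Bnc1 had the closest profiles, with a root mean square difference of 0.30 between their log2(normalized count + 1) profiles over the 6 libraries, each centred on its own mean. Upk3b and Upk1b came next at 0.39, and Upk1b and Bnc1 followed at 0.65. The 7 pairs that include Wt1 or Tcf21 ranged from 0.73 for Wt1 and Tcf21 to 1.26 for Tcf21 and Upk1b. Library 1 labelled Shox2-/- set much of this, with Upk3b, Upk1b and Bnc1 at levels 7.76-fold, 9.37-fold and 7.66-fold higher in library 2 of the same label than in library 1. For Wt1 and Tcf21 the same ratio was 1.30 and 2.03. Library 1 labelled Shox2-/- was the lowest of all 6 for 4 of the 5 tested markers, which was so for 22.9% of all genes tested. The same held for 11 of 16 tested mesothelial, 7 of 9 endodermal, 6 of 9 epithelial and 5 of 9 fibroblast markers. Among other epicardial regulators it held for 1 of 14.

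**Figure D2:**
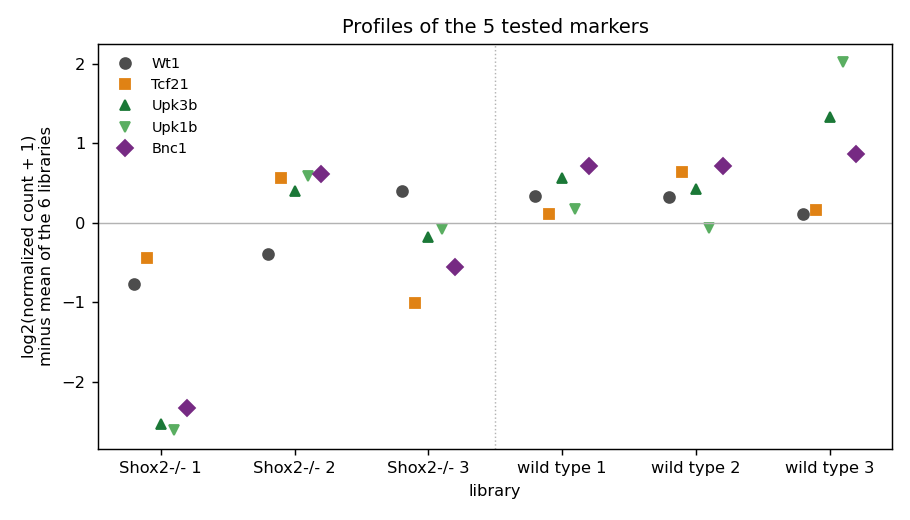
Log2(normalized count + 1) minus the gene's mean over the 6 libraries (vertical axis) for the 5 tested markers in each library, those labelled Shox2-/- on the left of the dotted line and those labelled wild type on the right. Upk3b, Upk1b and Bnc1 are all lowest in library 1 labelled Shox2-/-, Upk1b stands highest in library 3 labelled wild type, and Wt1 stays within a narrower band.

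The mix of markers differed between libraries. The ratio of Bnc1 to Wt1 normalized counts was 0.35, 2.04 and 0.53 in libraries 1, 2 and 3 labelled Shox2-/-, against 1.33, 1.34 and 1.73 in those labelled wild type. That of Upk3b to Wt1 was 0.14, 0.82 and 0.32 in libraries labelled Shox2-/-, against 0.56, 0.50 and 1.10 in those labelled wild type. Both ratios were therefore above those of libraries 1 and 2 labelled wild type in library 2 labelled Shox2-/-, and below them in the other two of that label. Upk1b per Upk3b was 0.47, 0.57 and 0.53 in libraries labelled Shox2-/-, against 0.38, 0.36 and 0.80 in those labelled wild type. The ratio was highest in library 3 labelled wild type, and those of the libraries labelled Shox2-/- lay between it and libraries 1 and 2 labelled wild type. In that library Upk1b was 3.90 times and Upk3b 1.79 times the mean of libraries 1 and 2 of the same label, while Wt1 was at 0.86 and Bnc1 at 1.11 times that mean.

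The genes with the profiles nearest to each marker were sought among 17029 other tested genes. Nearest to Bnc1 was Foxa1, a forkhead factor of endoderm and other epithelia, with a root mean square difference of 0.10 on the log2 scale, followed by the guanylate-binding protein gene Gbp3 at 0.17 and the thromboxane synthase gene Tbxas1 at 0.19. Foxa1 was at 1.73, 20.6 and 7.41 in libraries 1, 2 and 3 labelled Shox2-/-, against 21.6, 23.5 and 26.7 in those labelled wild type. Nearest to Upk3b were the basement membrane collagen gene Col15a1 (0.22), the tight junction gene Cldn2 (0.29) and Slfn5 (0.29). Nearest to Upk1b were Gdnf, a neurotrophic growth factor (0.24), Col8a2, a short-chain collagen (0.29), and the amino acid transporter gene Slc7a8 (0.33). Wt1 was closest to 4631405J19Rik (0.10), the synaptic adhesion gene Nrxn3 (0.10) and Sphkap (0.11), and Tcf21 to Zfp991 (0.16), Stat4 (0.16) and the zinc transporter gene Slc39a8 (0.17). The median over all genes was 1.18 for Bnc1, 1.25 for Upk3b, 1.39 for Upk1b, 0.52 for Wt1 and 0.64 for Tcf21. Gdnf was likewise at 1.73 and Col15a1 at 5.19 in library 1 labelled Shox2-/-, the library that set much of these profiles. With 6 libraries and so few reads behind some of these genes, nearness in profile is a description only.

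Per kilobase of exon, the order of levels was led by Bnc1 in both groups. In libraries labelled Shox2-/- the means were 186 ± 156 normalized counts per kilobase for Bnc1, 152 ± 65.4 for Wt1, 112 ± 81.9 for Upk3b, 103 ± 80.1 for Upk1b, 50.9 ± 29.2 for Tcf21 and 0.54 ± 0.054 for Msln (SD, n = 3). Of the neighbours in that order only Tcf21 and Msln had ranges that did not overlap. In libraries labelled wild type they were 394 ± 24.9 for Bnc1, 251 ± 91.0 for Upk3b, 243 ± 207 for Upk1b, 203 ± 17.1 for Wt1, 70.6 ± 15.3 for Tcf21 and 13.4 ± 21.5 for Msln (SD, n = 3). There the ranges of Upk3b, Upk1b and Wt1 overlapped, while Bnc1 lay above Upk3b, Tcf21 below Wt1 and Msln below Tcf21 without overlap.

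Single libraries decided much of the size of the changes. Without library 1 labelled Shox2-/-, the log2 change was -0.66 for Upk3b, -0.46 for Upk1b and -0.73 for Bnc1, against -1.54, -1.41 and -1.52 with all libraries. Without library 2 labelled Shox2-/-, it was -2.13 for Upk3b, -2.06 for Upk1b and -2.20 for Bnc1. Leaving out library 3 labelled wild type changed Upk1b to -0.76, and leaving out both library 1 labelled Shox2-/- and library 3 labelled wild type turned its sign to 0.20 (SE 0.26). Wt1 moved to -0.83 (SE 0.16) without library 3 labelled Shox2-/-, with a limma adjusted p of 0.258, the lowest over its alternatives (0.258 to 0.780). It moved to -0.25 without library 1 of that label. Tcf21 moved to -1.03 without library 2 and to -0.24 without library 3 labelled Shox2-/-. Library 3 labelled Shox2-/- and libraries 1 and 2 labelled wild type all carry Diff9 in their titles, and within these 3 the markers differed from each other. Wt1 was at 1394 in the library labelled Shox2-/-, against a mean of 1321 in those labelled wild type, and Upk1b at 234, against 258. In the same order of labels, Bnc1 was at 734, against 1763, Tcf21 at 65.2, against 175, and Upk3b at 440.0, against 700.0.

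**Figure D3:**
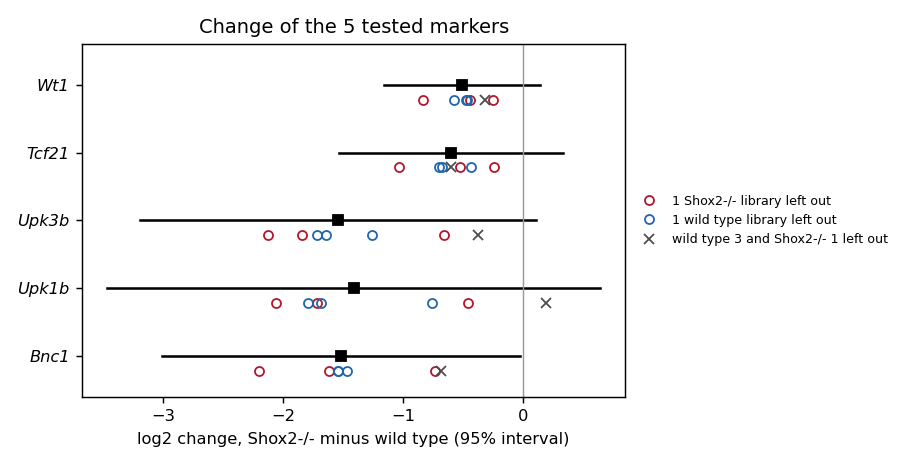
Log2 change (libraries labelled Shox2-/- minus those labelled wild type) of the 5 tested markers, with 95% intervals from limma (squares and lines), and the same change with 1 library left out (open circles, red for those labelled Shox2-/- and blue for wild type) or with library 3 labelled wild type and library 1 labelled Shox2-/- left out (crosses). Only the interval of Bnc1 ends below 0, at -0.02, and only the cross of Upk1b lies above 0, at 0.20.

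Relatives of the markers were mostly low. Of the other uroplakin genes, Upk1a was the only one tested, at 5.19, 4.47 and 9.63 in libraries labelled Shox2-/-, against 21.6, 11.1 and 17.3 in those labelled wild type (log2 change -1.26, SE 0.43; limma adjusted p = 0.290). Upk2 and Upk3a, which urothelium uses, stayed at or under 6.64 in every library, and Upk3bl, a relative of Upk3b, was at 0 in each library labelled Shox2-/- and at up to 3.91 in those labelled wild type, the last from 6 reads. Bnc2, the paralog of Bnc1, was at 924, 934 and 1088 in libraries labelled Shox2-/-, against 1494, 1418 and 1013 in those labelled wild type (log2 change -0.40, SE 0.17; limma adjusted p = 0.352). Library 1 labelled Shox2-/- was close to library 2 of that label for Bnc2 but not for Bnc1, and Bnc1 per Bnc2 was 0.23, 1.76 and 0.67 in libraries 1, 2 and 3 of that label, against 1.18, 1.24 and 1.94 in those labelled wild type. Tcf24, a basic helix-loop-helix gene, was at 17.3, 43.8 and 60.7 in libraries labelled Shox2-/-, against 118, 115 and 109 in those labelled wild type. Its groups did not overlap (log2 change -1.64, SE 0.44; limma adjusted p = 0.245). Egr1, a zinc finger factor that binds the same letters as Wt1, was at 1230.1, 1445 and 1726 in libraries labelled Shox2-/-, against 2211, 2263 and 2176 in those labelled wild type (log2 change -0.61, SE 0.14; limma adjusted p = 0.214). Msc had a log2 change of -0.43 (SE 0.47) and Tcf15 one of -0.69 (SE 0.61). Tcf23, Mslnl, the gene next to Msln, and Otoa were at or under 11.0 in every library and were not tested. Of 9 such relatives other than uroplakins, counting Wt1os, 6 were tested, of which 0 were called in limma and 3 (Bnc2, Tcf24 and Egr1) had an unadjusted p under 0.05, where 14.2% of all genes did.

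Other regulators of epicardium and proepicardium had a median log2 change of 0.07 over 14 tested of 15, against 0.01 over all genes. In limma 0 were called, and 4 (Nr2f2, Tbx18, Sema3d and Osr1) were lower at an unadjusted p under 0.05 with none higher, against 7.23% lower and 6.92% higher over all genes. Library 3 labelled wild type was the lowest of the 6 for 8 of the 14 and the highest for 3. The share of all genes for which that library was lowest or highest was not computed. Tbx18, a T-box factor of proepicardium and sinus horns, was at 64.0, 96.5 and 57.0 in libraries labelled Shox2-/-, against 193, 153 and 141 in those labelled wild type (log2 change -1.18, SE 0.26; limma adjusted p = 0.210). Sema3d, a secreted semaphorin of proepicardial cells, was at 34.6, 51.8 and 22.96 in libraries labelled Shox2-/-, against 79.7, 82.8 and 491 in those labelled wild type (log2 change -2.07, SE 0.71; limma adjusted p = 0.293). The orphan nuclear receptor gene Nr2f2 had a log2 change of -1.04 (SE 0.12; limma adjusted p = 0.0954) and Osr1, a zinc finger gene of lateral and intermediate mesoderm, one of -0.85 (SE 0.36; limma adjusted p = 0.352). Aldh1a2, the retinoic acid synthesis enzyme of epicardium, was at 583, 208 and 693 in libraries labelled Shox2-/-, against 257, 273 and 534 in those labelled wild type, and the groups overlapped (log2 change 0.39, SE 0.48; limma adjusted p = 0.741). Among the libraries labelled Shox2-/-, Aldh1a2 was lowest in library 2, where Bnc1 was highest.

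Of 18 other mesothelial markers 17 are listed and 16 were tested, with 13 negative and 3 positive log2 changes and a median of -0.58. In limma 0 were called. At an unadjusted p under 0.05, 6 were lower and 0 higher, and the same 6 had groups that did not overlap (over all genes, 7.23% were lower at that level and 10.8% did not overlap and were lower): Efemp1, Itga4, C3, Krt7, Cdh3 and Ezr. Efemp1, a fibulin of the matrix, was at 36.3, 67.0 and 93.3 in libraries labelled Shox2-/-, against 199, 223 and 669 in those labelled wild type (log2 change -2.32, SE 0.53; limma adjusted p = 0.219). Itga4, the integrin chain by which epicardium attaches to the heart, was at 1199, 1894 and 1678 in libraries labelled Shox2-/-, against 2506, 2457 and 3085 in those labelled wild type (log2 change -0.77, SE 0.19; limma adjusted p = 0.226). The keratin gene Krt7 was at 57.1, 126 and 55.6 in libraries labelled Shox2-/-, against 154, 140.1 and 433 in those labelled wild type (log2 change -1.50, SE 0.50; limma adjusted p = 0.289). The complement gene C3 had a log2 change of -2.41 (SE 0.80; limma adjusted p = 0.289). Library 3 labelled wild type was the highest of the 6 for each of these 4, and for 9 of the 16 tested in all, and the lowest for 2, Podxl and Dsp. No such share over all genes was computed for that library. Summed over the 17 listed markers, library 3 labelled wild type was nevertheless the lowest, at 30984 against 49980.3 to 51289 in the other two labelled wild type. Dsp, a desmosomal gene that cardiomyocytes also use, was at 6296 in it, against 23807 and 23667. Without Dsp the sum was 13791, 32416 and 18329 in libraries 1, 2 and 3 labelled Shox2-/-, against 27482, 26313 and 24688 in those labelled wild type, which overlapped.

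Genes of the epicardial epithelial-to-mesenchymal transition had changes of both signs. Of 20 tested, with Itga4 again among them, 9 had negative and 11 positive log2 changes (median 0.07), 0 were called in limma, and 5 were lower and 3 higher at an unadjusted p under 0.05, against 7.23% lower and 6.92% higher over all genes. The 3 higher were Twist1, a transcription factor of mesenchyme (log2 change 0.99, SE 0.36), the cadherin gene Cdh2 (0.47, SE 0.15) and the receptor gene Tgfbr1 (0.33, SE 0.10), chosen after their values were seen. Tgfb2, a transforming growth factor ligand, had a log2 change of -0.54 (SE 0.13; limma adjusted p = 0.226), and Cdh1, the epithelial cadherin, one of -1.07 (SE 0.28; limma adjusted p = 0.235). Stra6, the retinol uptake receptor gene, had one of -1.99 (SE 0.56; limma adjusted p = 0.252). Limma voom with sample quality weights called Cdh1 and Tgfb2 in this list, Nr2f2 among the regulators and Egr1 among the relatives, all lower in the libraries labelled Shox2-/-. It called 1.78% of all genes tested, and voom without weights called 0. The weights were highest for libraries 1 and 2 labelled wild type (3.595 and 4.224), the closest pair of libraries.

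**Figure D4:**
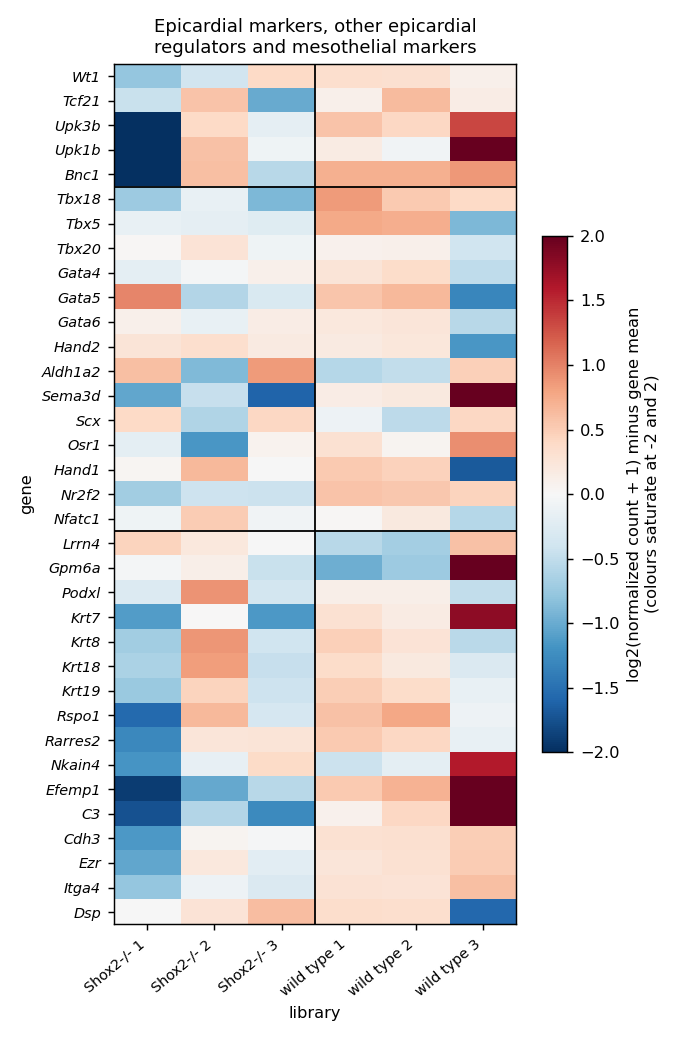
Heat map of log2(normalized count + 1) minus the gene's mean over the 6 libraries, for the 5 tested epicardial markers (top block), 14 other epicardial regulators (middle) and 16 other mesothelial markers (bottom). Columns are libraries, those labelled Shox2-/- left of the vertical line and those labelled wild type right of it. Colours saturate at -2 and 2, and library 1 labelled Shox2-/- is red for Aldh1a2, Gata5 and Lrrn4 where Upk3b, Upk1b and Bnc1 are deep blue.

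Some marker lists of other cell types shared much of the epicardial pattern across libraries. The endodermal, epithelial and fibroblast sums differed from the epicardial order of libraries only by a swap of neighbouring libraries. Each of these sums was also highest in library 3 labelled wild type. None of the sums given here had exactly the same order. The 6 epicardial markers summed to 1055, 3677 and 2869 normalized counts in libraries 1, 2 and 3 labelled Shox2-/-, against 4242, 4199 and 5625 in those labelled wild type. The 10 endodermal markers summed to 856, 7474 and 2412 in libraries labelled Shox2-/-, against 8151, 7367 and 10658 in those labelled wild type. In library 3 labelled wild type 7020.2 of that sum was Afp, the alpha-fetoprotein gene. Without Afp the other 9 summed to 785, 6746 and 1829 in libraries labelled Shox2-/-, against 6661, 5938 and 3638 in those labelled wild type. Library 1 labelled Shox2-/- was then still the lowest, but library 2 of that label was the highest of all 6, unlike for the epicardial sum. Apob alone gave 4720 of the 6746 in library 2 labelled Shox2-/-. The 10 epithelial markers summed to 1090.0, 2218 and 978 in libraries labelled Shox2-/-, against 2808, 2634 and 2849 in those labelled wild type, and the 10 fibroblast and mesenchyme markers to 183531, 238462 and 284349, against 384096, 379034 and 603775. Cardiomyocyte marker sums (10 genes) ranged from 13529 to 37154 in libraries labelled Shox2-/-, against 10773 to 29736 in those labelled wild type, and Ttn alone gave 17592 of the 37154. Gene by gene, library 1 labelled Shox2-/- was the lowest of the 6 for 7 of these 10, against 22.9% of all genes tested. Library 3 labelled wild type was the lowest for the other 3. Endothelial markers (8 genes) ranged from 8491 to 13045 and 3892 to 15016, and blood markers (7 genes) from 1988 to 15003 and 1570.2 to 11115, in the same order of labels. In library 3 labelled wild type, where Upk1b and Msln were highest, the cardiomyocyte, endothelial and blood sums were the lowest of the 6. Hbb-bh1 gave most of the blood sum in library 1 labelled wild type (7441 of 11115) and was at 60.45 in library 3. Gene by gene, library 3 was the lowest of the 6 for 4 of the 7 blood markers and the highest for 1, Cd68 (416). Ptprc was at 525 and Csf1r at 539 in it, against 163 and 189 in library 1 of that label and 158 for both in library 2. The part of these cell types in the levels of the epicardial markers was not tested.

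Markers of other tissues that use the same genes were measured as well. The kidney gene Pax2 stayed at or under 3.46 normalized counts in every library. The 7 gonadal markers summed to 2099 to 2395 in libraries labelled Shox2-/-, against 1663 to 2727 in those labelled wild type, of which Gata4, also a heart gene, gave most, while Nr5a1 was at or under 6.64. The 8 urothelial and keratinocyte markers summed to 87.4 to 122 in libraries labelled Shox2-/-, against 154 to 211 in those labelled wild type. Their basal keratin gene Krt5 was at 0 in 2 libraries labelled Shox2-/- and 2 labelled wild type, and did not exceed 1.96 in the others.

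**Figure D5:**
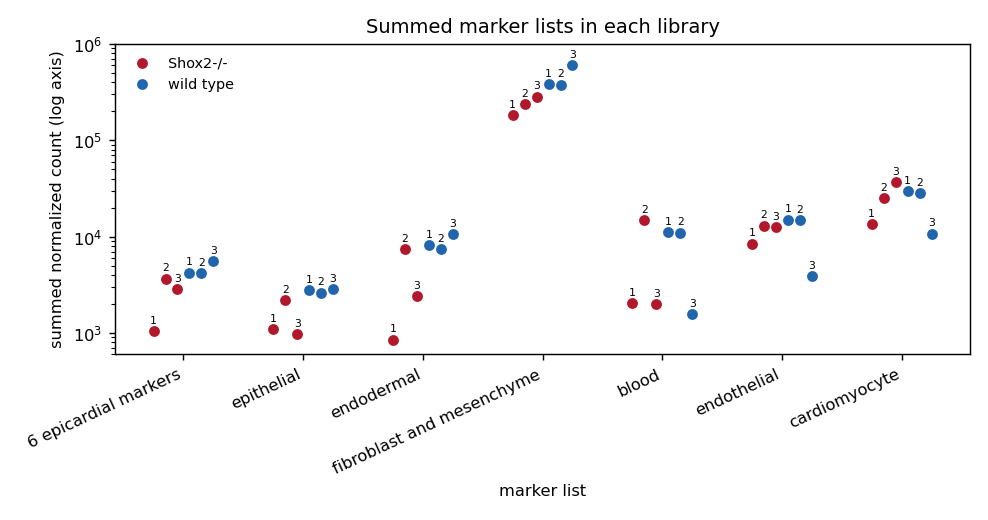
Summed normalized counts (log axis) of the 6 epicardial markers and of marker lists of other cell types in each library. Within each list the 3 libraries labelled Shox2-/- (red) stand left of the 3 labelled wild type (blue), and numbers name the library. The epicardial sum is lowest in library 1 labelled Shox2-/- (1055) and highest in library 3 labelled wild type (5625). The endodermal sum has the same lowest and highest library (856 and 10658), the highest through Afp (7020.2).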

How the data were processed

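RNA sequencing was measured in 3 samples labelled Shox2-/- and 3 labelled wild type, 1 deposited table each. The tools listed in the submitters' processing notes, without their roles, are BWA, HTSeq, CASAVA 1.8.2 and DESeq2 1.14.0, and the build is mm10. The deposited values are gene-level read counts that the authors had divided by 1 size factor per library, as worked out from the values: they are whole multiples of 1 step per library (100% within 0.1 reads), and division by the step gave the reads. Kit, strandedness and annotation release: not given in the sources used here. Values were analysed as log2(value + 1) with limma 3.58.1 in R 4.3.3 (a two-sided moderated test of group with an intensity trend, adjusted by Benjamini-Hochberg over the 17034 genes that reached 10 in 3 or more libraries). On the log2(value + 1) scale, changes of low genes are understated. The planned count-model alternatives were not run, because an automatic check of the unit could not read the decimal commas of the deposited values. Limma voom was run instead on the reads worked out above. The limma script was tested on simulated data. Positions and exon lengths come from GENCODE M21 (GRCm38), in which 30484 of 30631 IDs were found. Poisson intervals and the limit of 3 reads cover counting error only. Alternatives were 2 other pseudocounts, 2 other filters, 2 other scalings, voom, each library left out, libraries 1 and 2 labelled wild type averaged and a block for Diff9 titles. The members and gene lists were chosen with earlier results of these data known. Genes named are the 6 markers, Shox2 and Alcam, their relatives, up to 4 genes of lowest p in each of 3 epicardial lists and 3 nearest profiles per tested marker. Aldh1a2, Cdh3, Ezr, Podxl, Dsp, Afp, Apob, Ttn, the blood genes, Twist1, Cdh2, Tgfbr1, Gata5, Lrrn4, Gata4 and the single genes of other tissues were chosen after their values were seen.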

Additional observations from a re-analysis of the deposited data

How the results depend on the processing

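None of the 5 tested markers was called under any of the 17 alternatives run. The number of genes called over the whole table was 0 as reported, 2 with no filter on low values (of 30282 genes) and 303 with limma voom and sample quality weights. With 1 library left out it was between 0 and 51, the 51 without library 2 labelled Shox2-/-. The regulator list had 1 call (Nr2f2) with voom weights and between 0 and 1 with a library left out, the transition list 2 (Cdh1 and Tgfb2) and the relatives 1 (Egr1) with voom weights, against 0 as reported. The sign of Upk1b reversed to 0.20 without library 3 labelled wild type and library 1 labelled Shox2-/- together, an alternative chosen after seeing the data, as was voom without weights. Every other alternative kept the negative sign of the 5 tested markers, with limma adjusted p of 0.258 to 0.780 for Wt1, 0.198 to 0.786 for Tcf21, 0.230 to 0.603 for Upk3b, 0.358 to 0.849 for Upk1b and 0.120 to 0.587 for Bnc1. Msln, tested only without the filter, had an adjusted p of 0.674, and its difference without a test shrank to -0.04 without library 3 labelled wild type. The voom weights ran from 0.21 for that library to 4.22 for library 2 labelled wild type. No paired analysis was possible because the labels give no replicate numbers that the groups share, only Diff numbers of unstated meaning of which 9 alone occurs in both. Depth limits Upk2, Upk3a and Upk3bl, with at most 8 reads in any library, and Msln outside library 3 labelled wild type. The planned edgeR and DESeq2 fits were not run, since an automatic check of the unit could not read the decimal commas, although the values worked out to whole reads.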
